A study of Mus musculus with 11 samples.

Results

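The heat shock and immediate early genes described here are 10 mouse genes, chosen by symbol among the 27179 genes of the deposited count files. The 6 heat shock genes are Hspa1a, Hspa1b, Hspa8, Hsph1, Hsp90aa1 and Dnajb1, and the 4 immediate early genes are Fos, Jun, Egr1 and Ier2. All 10 were found, and 8 passed the filter on low counts that left 14542 genes for testing. Hspa1a and Fos did not pass it, so their levels are described per embryo. RNA came from the head neural tissue of 11 embryos at embryonic day 9.5 on the C57BL/6 background, with 1 poly(A) RNA library for each embryo. The 4 affected females were p53-/- Bim+/-, the 4 control males were p53-/- Bim+/-, and the 3 control females were p53+/+ Bim+/-. All 11 embryos thus carried 1 mutant allele of Bim, a gene for a protein that promotes apoptosis. What the word affected refers to is not stated in the labels. Affected and control females differed in p53 genotype as well, affected females and control males differed in sex as well, and control males and control females differed in both p53 genotype and sex. These factors cannot be told apart within each comparison. In bulk tissue, fewer cells of a type and less RNA per cell cannot be told apart either.

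Cells that meet heat, hypoxia or misfolded protein activate heat shock factor 1, which binds repeats of the element nGAAn upstream of chaperone genes. The chaperones of the Hsp70 family bind unfolded polypeptides, J-domain proteins such as Dnajb1 deliver clients to them, and Hsp110 proteins such as Hsph1 release the bound nucleotide. Immediate early genes are transcribed within minutes of a growth factor, stress or mechanical stimulus without new protein synthesis, through serum response factor and its partners, and both sets are known to respond to dissection and handling of tissue. Many chaperones are also made constantly in growing embryonic tissue.

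Total counts ranged from 8211942 to 11218682 per library, and control female 1 had the lowest. All 10 markers of neural tissue were detected, with a summed level of 1072 to 1353 CPM (TMM-normalised counts per 1000000) over the 11 embryos, and no marker of neurons, primitive erythroid cells, endothelium, head mesenchyme or surface ectoderm was at 0 in every library. Control female 1 stood apart from control females 2 and 3. Its 10 primitive erythroid markers summed to 1008 CPM, against 4848 and 4653 CPM in control females 2 and 3, 1501 to 2758 CPM in the affected females and 2544 to 4091 CPM in the control males. Among 14542 tested genes, 21 were at least 4-fold above the median of the 11 embryos in control female 1, and 0 to 14 were in the other embryos, while 32 were at least 4-fold below it, against 1 to 19 in the others. Results that rest on control female 1 are therefore given with and without it.

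The inducible Hsp70 genes Hspa1a and Hspa1b were close to silent in 10 embryos and high in control female 1. Both encode nearly the same stress-induced chaperone and lie side by side on chromosome 17, with Hspa1a at chr17:34969359-34972156 and Hspa1b at chr17:34956429-34959238 on the minus strand of GRCm38.p6. Hspa1a had 0.0997, 0.206, 0.0932 and 0.0969 CPM in affected females 1 to 4, 0.094, 0.310, 0.197 and 0.636 CPM in control males 1 to 4, and 39.5, 0.106 and 0.0927 CPM in control females 1 to 3. These values came from 317 counts in control female 1 and 1 to 7 counts in each other embryo. Hspa1b had 0.698, 0.925, 0.746 and 0.194 CPM in affected females 1 to 4, 1.32, 0.931, 0.986 and 1.91 CPM in control males 1 to 4, and 96.3, 0.53 and 0.834 CPM in control females 1 to 3. Control female 1 alone was high. Control females 2 and 3 had 1 count of Hspa1a each, as did 3 of the affected females, and their Hspa1b levels lay within the range of the affected females.

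**Figure D1:**
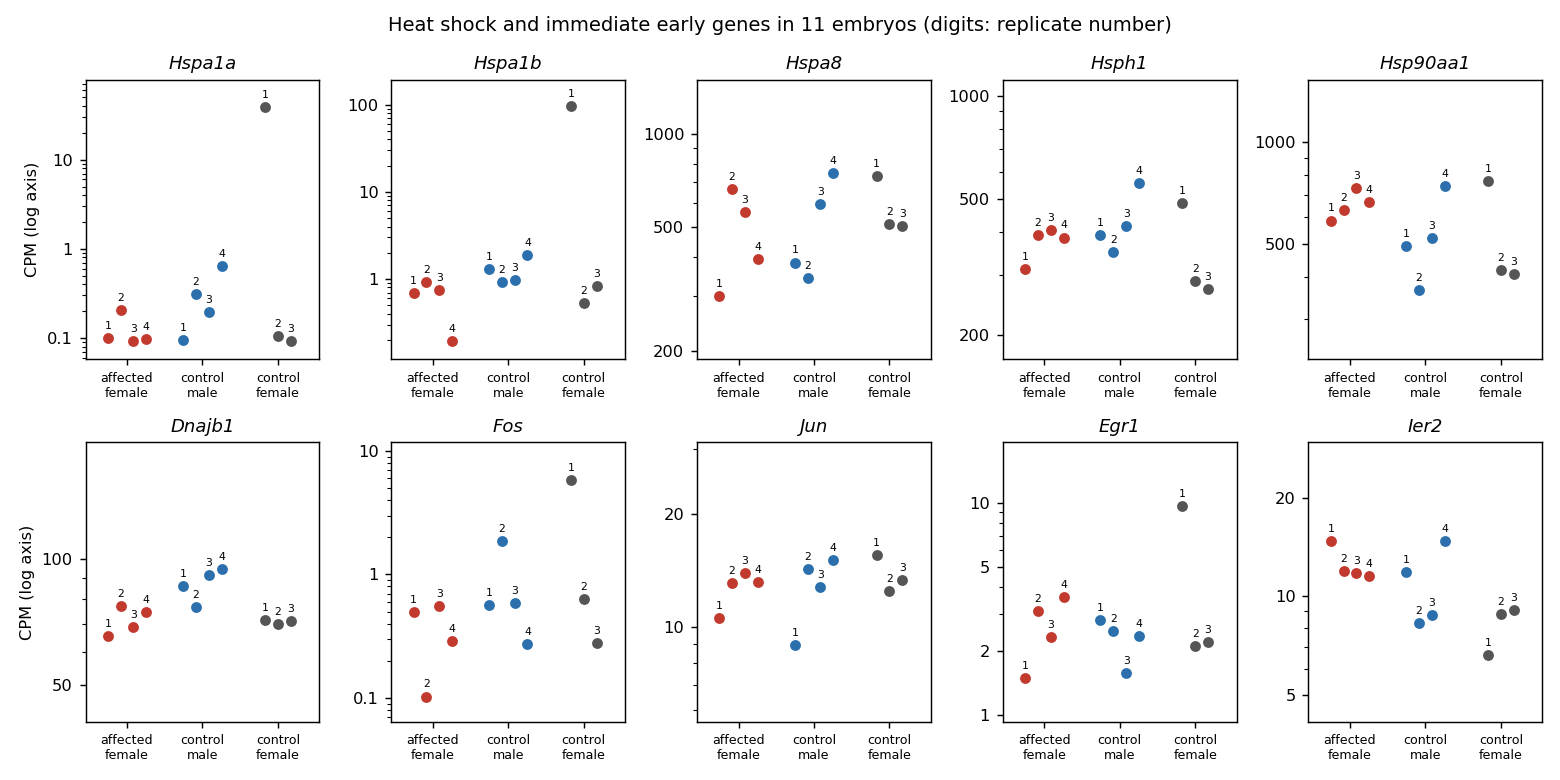
Levels of the 10 genes in each of 11 embryos, as CPM on a log axis, with affected females, control males and control females from left to right and the replicate number above each point. Control female 1 lies far above every other embryo for Hspa1a (39.5 CPM), Hspa1b (96.3 CPM), Fos (5.86 CPM) and Egr1 (9.60 CPM), and lowest for Ier2 (6.60 CPM).

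In control female 1, Hspa1a was 384-fold and Hspa1b 110-fold above the median of the other 10 embryos. Pooling the other 10 embryos, 317 counts of Hspa1a stood against 20, a rate ratio of 202 with an exact 95% interval of 129 to 336, and 773 counts of Hspa1b stood against 94, a rate ratio of 105 with an interval of 84.7 to 132. These intervals cover counting error only. Of the 14542 genes tested, Hspa1b had the largest difference between control female 1 and the median of all embryos, 6.42 on the log2 CPM scale. Its pooled standard deviation within groups was 2.03 on that scale, against a median of 0.19 over all genes, and 0.0% of tested genes had a larger one. Without control female 1 the value was 0.54, and 3.58% of genes had a larger one. Hspa1l, the third gene of the cluster, lies next to Hspa1a and was chosen after its values were seen. It had 7.48 CPM in control female 1 and 3.91 to 9.82 CPM in the other 10 embryos, so its level there lay within the range of the rest.

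Hspa1a and Hspa1b share most of their sequence, and the assignment of reads that match both is not described in the sources used here. In the GENCODE vM21 transcripts, 58.8% of the 50-base windows of Hspa1a also occur in Hspa1b, and 62.3% of those of Hspa1b occur in Hspa1a, while 7.95% and 6.79% of their windows occur in Hspa1l and 0 in Hspa8. The split between the pair is therefore uncertain, and their sum may also have lost or gained reads, depending on how such reads were counted. The sum was 8, 11, 9 and 3 counts in affected females 1 to 4, 15, 12, 12 and 28 counts in control males 1 to 4, and 1090, 6 and 10 counts in control females 1 to 3. Control male 4 had the second highest sum, at 2.54 CPM.

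The upstream sequences of both genes are shown because these are the members that stood apart most, and because they carry the heat shock factor element. They are RefSeq sequences of GRCm38.p6 from 200 bases to 1 base before the start site on the minus strand, at chr17:34972157-34972356 for Hspa1a and chr17:34959239-34959438 for Hspa1b, in gene direction, with the match to GAANNTTC in capitals. They are 99.5% identical and differ at 1 of 200 bases.
Hspa1a: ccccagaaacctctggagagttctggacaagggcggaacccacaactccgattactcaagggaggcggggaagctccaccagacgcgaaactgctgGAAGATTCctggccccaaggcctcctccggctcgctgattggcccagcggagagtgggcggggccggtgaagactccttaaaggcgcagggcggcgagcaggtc
Hspa1b: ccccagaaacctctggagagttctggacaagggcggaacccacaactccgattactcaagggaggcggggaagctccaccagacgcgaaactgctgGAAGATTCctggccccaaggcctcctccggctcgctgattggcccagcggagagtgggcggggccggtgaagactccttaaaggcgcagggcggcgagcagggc

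Inverted repeats of the element were searched as GAANNTTC and TTCNNGAA, each of which reads the same on both strands, within 250 bases upstream of the start. Of 32851 RefSeq promoter windows, 6.69% held GAANNTTC, 7.17% held TTCNNGAA and 12.8% held either. The table had windows for 6 of the 10 members. Hspa1a and Hspa1b each held GAANNTTC at position -104, Jun held it at -128, and Hsph1 held TTCNNGAA at -33 in 1 window and -54 in another. The windows of Dnajb1 and Fos held neither, and Fos held TATAAA at -33, as did 12.4% of all windows at any position. Matching letters do not show that the factor was bound.

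The stretches of Hsph1 and Jun that hold the match are shown for comparison, since neither gene stood apart in control female 1 as Hspa1a and Hspa1b did. They are from chr5:149636337-149636436 and chr4:95052303-95052402 on the minus strand of the same build, with the match in capitals. That of Hspb1, a small heat shock gene outside the 10, is from chr5:135887769-135887868 on the plus strand and holds GAANNTTC at -117 and at -97.
Hsph1: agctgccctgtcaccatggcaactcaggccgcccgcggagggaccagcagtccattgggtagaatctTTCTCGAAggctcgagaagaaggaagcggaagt
Jun: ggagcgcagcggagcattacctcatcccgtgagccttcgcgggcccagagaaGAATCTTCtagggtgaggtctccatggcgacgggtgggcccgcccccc
Hspb1: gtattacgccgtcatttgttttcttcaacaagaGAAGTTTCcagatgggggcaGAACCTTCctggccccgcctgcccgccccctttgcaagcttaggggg

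The other 4 heat shock members were expressed at high levels in every embryo and varied far less. Per kilobase of gene length, the median level over the 11 embryos was 244 CPM for Hspa8, 206 for Hsp90aa1, 113 for Hsph1, 32.9 for Dnajb1, 7.57 for Ier2, 4.13 for Jun, 0.769 for Egr1, 0.329 for Hspa1b, 0.267 for Fos and 0.0379 for Hspa1a. The ranges over embryos overlapped between neighbours in this order for Hspa8, Hsp90aa1 and Hsph1, for Ier2 and Jun, and for Jun, Egr1, Hspa1b, Fos and Hspa1a, where control female 1 supplied the highest value of each. Dnajb1, at 28.9 to 41.8 CPM per kilobase, overlapped neither neighbour. In control female 1, Hspa1b reached 34.3 and Hspa1a 14.1 CPM per kilobase, so that Hspa1b there lay within the range of Dnajb1.

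Hspa8, the constitutive Hsp70 of the cytosol, had 301, 664, 558 and 394 CPM in affected females 1 to 4, 385, 342.5, 594 and 747 CPM in control males 1 to 4, and 732, 513 and 505 CPM in control females 1 to 3. The groups overlapped fully, with control male 4 and control female 1 highest. Its standard deviation within groups was 0.47 on the log2 scale, and 7.49% of genes had a larger one. This spread did not rest on control female 1, since it was 0.48 without that embryo.

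Hsp90aa1, the inducible cytosolic Hsp90, had 587, 629.5, 733 and 666 CPM in affected females 1 to 4, 493.5, 364, 521 and 741 CPM in control males 1 to 4, and 767, 417 and 408 CPM in control females 1 to 3. Hsph1 had 311, 393, 406 and 385 CPM in affected females 1 to 4, 392, 350.3, 417 and 556 CPM in control males 1 to 4, and 486.5, 288 and 272.5 CPM in control females 1 to 3. For Hsp90aa1, control female 1 and control male 4 lay above all affected females, whereas the other 5 control embryos lay below all of them. For Hsph1, control male 4 was highest and control female 1 was second, and control females 2 and 3 were lowest.

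Dnajb1 had 65.4, 77.2, 68.7 and 74.5 CPM in affected females 1 to 4, 86.1, 76.6, 91.5 and 94.7 CPM in control males 1 to 4, and 71.5, 69.95 and 71.2 CPM in control females 1 to 3. Control males lay above the other embryos, save that control male 2 lay just under affected female 2. Its standard deviation within groups, 0.11, was exceeded by 86.3% of tested genes. The 3 control females were nearly equal.

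Among the immediate early genes, Fos, Egr1 and Jun were highest in control female 1, Jun by little, and Ier2 was lowest there. Fos, a partner of Jun in the transcription factor AP-1, had 0.498, 0.103, 0.559 and 0.291 CPM in affected females 1 to 4, 0.564, 1.86, 0.592 and 0.273 CPM in control males 1 to 4, and 5.86, 0.636 and 0.278 CPM in control females 1 to 3. In counts this was 47 in control female 1, 18 in control male 2 and 1 to 6 in each other embryo. Fos in control female 1 was 11.1-fold above the median of the others, and its rate ratio over the pooled others was 10.5, with an exact 95% interval of 7.00 to 15.8.

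Egr1, a zinc finger transcription factor, had 1.50, 3.08, 2.33 and 3.58 CPM in affected females 1 to 4, 2.82, 2.48, 1.58 and 2.36 CPM in control males 1 to 4, and 9.60, 2.12 and 2.22 CPM in control females 1 to 3. Control female 1 was 4.09-fold above the median of the others, and the other 10 embryos overlapped across groups. On log2 CPM with a prior count of 2, Egr1 in control female 1 lay 1.93 above the median of all 11 embryos. By that difference it ranked 23 of 14542 genes in that embryo.

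Jun had 10.6, 13.2, 14.0 and 13.2 CPM in affected females 1 to 4, 8.93, 14.3, 12.8 and 15.1 CPM in control males 1 to 4, and 15.6, 12.5 and 13.4 CPM in control females 1 to 3. Control female 1 was highest by a small margin over control male 4. Ier2, a nuclear protein induced early by growth factors, had 14.8, 11.9, 11.7 and 11.5 CPM in affected females 1 to 4, 11.9, 8.27, 8.78 and 14.7 CPM in control males 1 to 4, and 6.60, 8.80 and 9.08 CPM in control females 1 to 3. For Ier2 the ranges of affected and control females did not overlap, and that of control males, 8.27 to 14.7 CPM, overlapped both. Ier2 in control female 1 had a rate ratio of 0.590 over the pooled others, with an exact 95% interval of 0.439 to 0.777. The pooled others include the affected females, so this ratio mixes the difference between groups with that of the single embryo. The interval covers counting error only.

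**Figure D2:**
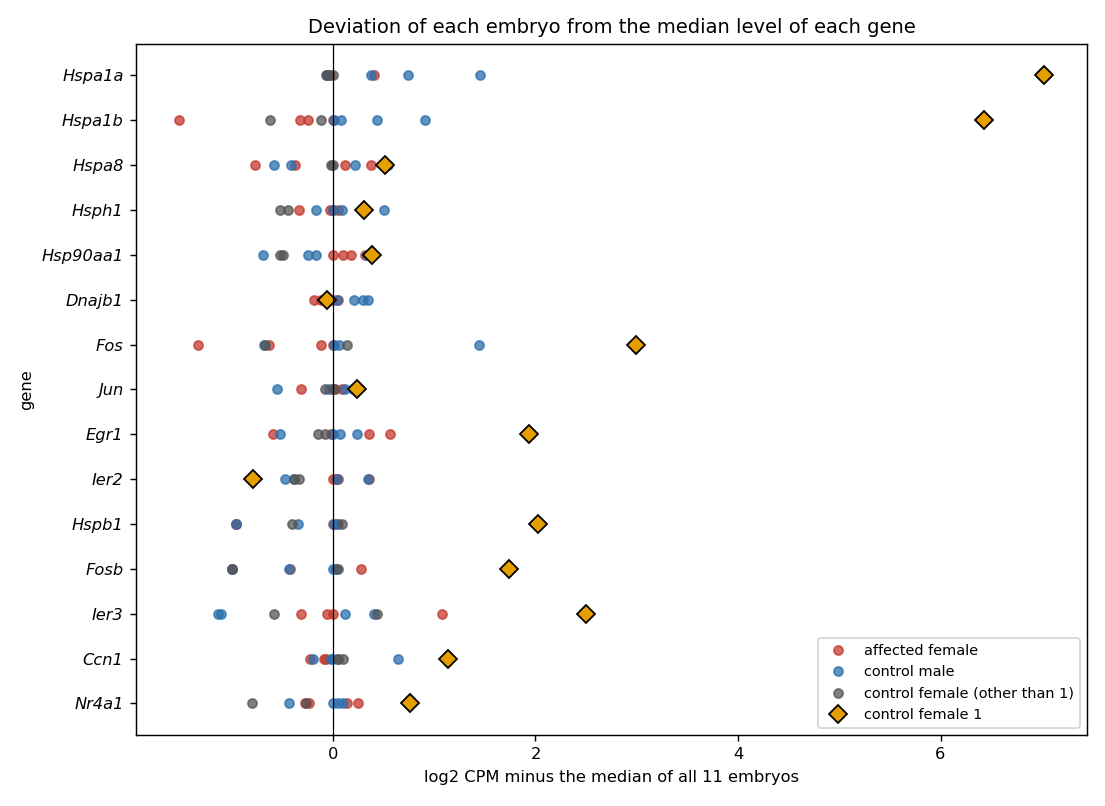
Log2 CPM of each embryo minus the median of all 11 embryos for the 10 genes and 5 further stress and immediate early genes, with control female 1 as an orange diamond and the affected females, control males and other control females as red, blue and grey points. Control female 1 lies at 7.02 for Hspa1a, 6.42 for Hspa1b, 3.00 for Fos and 1.93 for Egr1, close to the median for Dnajb1 (-0.06) and Jun (0.24), and lowest for Ier2 (-0.79).

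Among 25 other heat shock genes and 36 other immediate early genes, those at least 4-fold from the median of the 11 embryos in any embryo, on log2 CPM with a prior count of 2, were Hspb1 and Ier3, both in control female 1. Hspb1 had 1.37 CPM there, from 11 counts, and 0 to 0.212 CPM in the other 10 embryos. Ier3, which is induced early by stress and growth factors, had 4.61 CPM there against a median of 0.652 CPM over all embryos. Of the 36 other immediate early genes, 12, or 33.3%, had their highest level in control female 1, and 4 of the 25 other heat shock genes did, or 16.0%, while 11.9% of all tested genes did. Another 6 of the 36, or 16.7%, were lowest there, as were 14.5% of all tested genes, and the median difference of the 36 from the median of all embryos was 0.04 on the log2 scale. Only 29 of the 36 and 23 of the 25 passed the filter on low counts, so these shares and those of all tested genes are not like for like. Egr3, for example, was highest in control female 1, the smallest library, with 1 count. The 12 included Fosb, Nr4a1 and Ccn1, named here after their values were seen. Fosb, a Fos relative, had 9 counts and 1.12 CPM in control female 1, and Ccn1, a secreted matrix protein gene, had 41.0 CPM there against 15.8 to 29.1 CPM in the others. Cryab, a small heat shock gene, and Bag3, a co-chaperone of Hsp70, were not raised there, with 0.872 and 10.7 CPM against 0.834 to 2.27 and 7.90 to 14.4 CPM in the other embryos, the pair also being chosen after their values were seen.

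Control female 1 also differed from control females 2 and 3 in other features. The 12 glycolysis and hypoxia genes summed to 3994 CPM in it, against 2627 and 2472 CPM in control females 2 and 3, and Adm, a hypoxia-induced peptide hormone gene, had 4.98 CPM against 1.06 and 0.927 CPM. Its 10 neuron markers summed to 152 CPM, against 308 and 369 CPM in control females 2 and 3, and 9 of 10 primitive erythroid markers had their lowest level of all 11 embryos in it. Mitochondrial genes made up 2.48% of its counts, against 4.59% and 4.99% in control females 2 and 3. The affected females had glycolysis and hypoxia sums of 4167 to 5379 CPM, neuron sums of 117 to 147 CPM and mitochondrial shares of 1.31% to 1.69%. Their Hspa1a, Hspa1b, Fos and Egr1 all lay below those of control female 1. The part of these features in the levels of Hspa1a, Hspa1b, Fos and Egr1 was not tested. Control male 4, which was highest for Hspa8, Hsph1 and Dnajb1, also had a glycolysis and hypoxia sum of 3923 CPM, the highest among control males, and 2.06% mitochondrial counts, the lowest among them. It held the highest level of 3 of the 6 heat shock members, while it held that of 5.13% of all tested genes.

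The genes whose level followed Hspa1b most closely over the 11 embryos were Rab11a, Yme1l1, Snapc1, Bhlhe40 and Uhrf2, with Pearson r of 0.925, 0.920, 0.913, 0.897 and 0.893 on log2 CPM. Without control female 1, r over 10 embryos was 0.798, 0.432, 0.413, 0.129 and 0.793, so that the likeness of Yme1l1, Snapc1 and Bhlhe40 rested largely on that embryo. Spearman's rho over 11 embryos was 0.945 for Rab11a and 0.900 for Uhrf2. Those closest to Fos were Eps15l1, F420014N23Rik, Ccn1, Usp48 and Dlec1, with r of 0.965, 0.941, 0.940, 0.936 and 0.926, and with r of 0.916, 0.897, 0.820, 0.813 and 0.885 without control female 1. These are the highest of 14542 genes by choice, the embryos share groups and depth, and they are given as a description.

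Affected females were compared with control females in an edgeR quasi-likelihood fit over all 11 embryos, with Benjamini-Hochberg adjustment over all genes. Of the 8 members tested, 1 was higher in affected females and 1 was lower, which is 25.0%, and 28.0% of all genes were called, 13.0% as higher and 15.0% as lower. Hspa1b averaged 0.641 ± 0.313 CPM in affected females (SD, n = 4) and 32.6 ± 55.2 CPM in control females (SD, n = 3), a log2 fold change of -5.62 (SE 1.3, edgeR adjusted p = 0.00828). Without control female 1 the fold change was -0.11 (SE 0.55, edgeR adjusted p = 0.894), so the call rested on that embryo. The sum of Hspa1a and Hspa1b behaved alike, with -5.87 and, without control female 1, -0.05.

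Ier2 averaged 12.5 ± 1.52 CPM in affected females (SD, n = 4) and 8.16 ± 1.36 CPM in control females (SD, n = 3), a log2 fold change of 0.60 (SE 0.20, edgeR adjusted p = 0.0365). Each of the 4 affected females lay above each of the 3 control females, also without control female 1. The call was lost in each of the 7 fits that left out 1 affected or control female, with edgeR adjusted p up to 0.096, and without control female 1 the fold change was 0.48 (SE 0.21).

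Hsp90aa1 averaged 654 ± 61.9 CPM in affected females (SD, n = 4) and 531 ± 205 CPM in control females (SD, n = 3), and Hsph1 374 ± 42.5 and 349 ± 119 CPM. With all embryos neither passed the test, with log2 fold changes of 0.30 (SE 0.22, edgeR adjusted p = 0.319) and 0.10 (SE 0.19, edgeR adjusted p = 0.709). Without control female 1, Hsp90aa1 was higher in affected females by 0.66 (SE 0.20, edgeR adjusted p = 0.0222), and it was then the 1 member called, 12.5% of 8, where 31.1% of all genes were, 14.8% as higher and 16.2% as lower. Hsph1 was then at 0.42 (SE 0.16, edgeR adjusted p = 0.0568). Control female 1 had the highest Hsp90aa1 and Hsph1 of its group, so leaving it out raises these fold changes by itself.

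Egr1, Hspa8, Jun and Dnajb1 did not pass the test between affected and control females. Egr1 had a log2 fold change of -0.78 (SE 0.45, edgeR adjusted p = 0.201), which was 0.27 without control female 1, and Hspa8 had -0.28 (SE 0.27). Jun had -0.11 (SE 0.17) and Dnajb1 0.01 (SE 0.091), and their adjusted p in edgeR was 0.632 and 0.938. Hspa1a and Fos did not pass the filter on low counts with all 11 embryos, and in a fit with no filter both were lower in affected females, with log2 fold changes of -6.56 (SE 1.3, edgeR adjusted p = 0.000952) and -2.48 (SE 0.76, edgeR adjusted p = 0.0228). The levels in control females 2 and 3 lay within or next to those of the affected females for both genes, so these differences rested on control female 1. Fos passed the filter in the fits without control female 2, at -2.94, and without control female 3, at -3.06, with edgeR adjusted p of 0.043 and 0.0261, and control female 1 was in both.

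**Figure D3:**
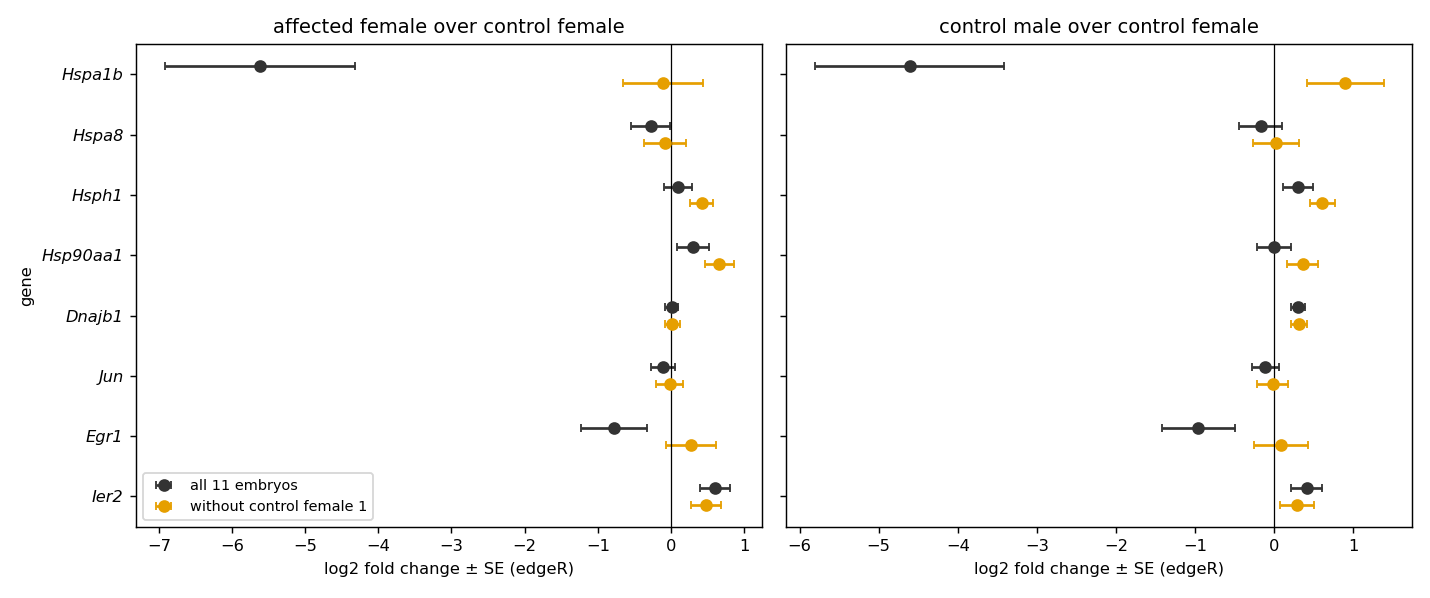
Log2 fold change of the 8 tested genes with its SE from edgeR, for affected over control females on the left and control males over control females on the right, with all 11 embryos in black and without control female 1 in orange. Leaving out control female 1 moved Hspa1b to -0.11 and 0.90, against -5.62 and -4.61 with all embryos, and raised Hsp90aa1 to 0.66 and 0.36.

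Between affected females and control males, which share the p53-/- Bim+/- genotype, 1 of 8 members was called, lower in affected females, or 12.5%, where 20.2% of all genes were called, 9.51% as higher and 10.7% as lower. Dnajb1 averaged 71.4 ± 5.35 CPM in affected females and 87.2 ± 7.92 CPM in control males (SD, n = 4 each), a log2 fold change of -0.29 (SE 0.083, edgeR adjusted p = 0.0274). The groups overlapped by 1 embryo on each side, and the call was lost in 5 of 11 fits that left out 1 embryo, with edgeR adjusted p between 0.0245 and 0.0929. Hsp90aa1 had a log2 fold change of 0.30 (SE 0.21, edgeR adjusted p = 0.296), and 0.51 without control male 4 (edgeR adjusted p = 0.0474), the control male with the highest Hsp90aa1, whose removal raises the fold change by itself. Hspa1b averaged 0.641 ± 0.313 CPM in affected females and 1.29 ± 0.449 CPM in control males (SD, n = 4 each). Affected female 2 lay just under control male 2, but both had 9 counts. That the groups did not overlap in CPM thus rested on library scaling. The log2 fold change of Hspa1b was -1.01, with an SE of 1.8 and an edgeR adjusted p of 0.709 in the fit that held control female 1. In the fit without control female 1 the SE was 0.40 and the edgeR adjusted p 0.0748.

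Between control males and control females 0 of 8 members were called by edgeR, where 0.144% of all genes were called, 0.0481% as higher and 0.0963% as lower. At an unadjusted p under 0.05, 2 of 8 members passed in edgeR, Hspa1b at 0.0012 and Dnajb1 at 0.00459, as did 891 of 14542 genes. DESeq2 called 0 members and limma voom 2 of 8, a larger share than that of all genes in limma voom. The totals of both tools over all genes are given with the processing below. Dnajb1 averaged 87.2 ± 7.92 CPM in control males (SD, n = 4) and 70.9 ± 0.831 CPM in control females (SD, n = 3), with every control male above every control female, a log2 fold change of 0.30 (SE 0.090, edgeR adjusted p = 0.623). Hspa1b had a log2 fold change of -4.61 (SE 1.2), which was 0.90 (SE 0.49, edgeR adjusted p = 0.747) without control female 1. Without control female 2 or without control female 3 it was called as lower in control males, down to an edgeR adjusted p of 0.0451.

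Among 23 tested genes of the other 25 heat shock genes, 5 rose and 2 fell in affected females against control females, or 30.4%, where 28.0% of all genes were called, with a median log2 fold change of 0.19 against 0.00 for all genes. Leaving out 1 embryo gave 2 calls (without control female 3) to 12 (without control female 1). Sizes after rose or fell are log2 fold changes here and in the next paragraphs. Without control female 1, 10 rose and 2 fell, or 52.2%, where 31.1% of all genes were called, and the median was 0.34. Sqstm1, an autophagy receptor that binds ubiquitinated protein, averaged 57.4 ± 3.29 CPM in affected females (SD, n = 4) and 37.6 ± 0.810 CPM in control females (SD, n = 3), and rose by 0.61 (SE 0.11, edgeR adjusted p = 0.00326). Cryab rose by 1.12 (SE 0.32, edgeR adjusted p = 0.0201), at 1.85 ± 0.342 CPM in affected females and 0.851 ± 0.0193 CPM in control females. Hspe1, the mitochondrial co-chaperonin, fell by 0.71, and Hspa4l, an Hsp110 relative, fell by 0.33, with edgeR adjusted p of 0.00462 and 0.0201. Hspd1, also of this list, had the other sign from Hspe1 and was not called, at 0.40 (edgeR adjusted p = 0.0582). Without control female 1 it was at 0.56 (edgeR adjusted p = 0.0147).

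Some other cytosolic chaperones and co-chaperones, chosen after their values were seen, are given beside Hsp90aa1. Hsp90ab1, the constitutive Hsp90, had 5505, 5549, 6767 and 6375 CPM in affected females 1 to 4, 3597, 3213, 4170.0 and 5669 CPM in control males 1 to 4, and 5483, 3600.0 and 3390.0 CPM in control females 1 to 3. Control male 4 lay within the affected females and control female 1 just under them, while the other 5 control embryos lay far below. Its log2 fold change in affected over control females was 0.54 (SE 0.20, edgeR adjusted p = 0.0532), and 0.79 (SE 0.19, edgeR adjusted p = 0.00977) without control female 1. Hspa4, an Hsp110 chaperone, rose by 0.44 (SE 0.14, edgeR adjusted p = 0.0335), and Fkbp4, an Hsp90 co-chaperone, rose by 0.50 (SE 0.14, edgeR adjusted p = 0.0209). Stip1, which links Hsp70 and Hsp90, had 0.34 (edgeR adjusted p = 0.0764), and 0.53 (edgeR adjusted p = 0.0108) without control female 1. Against control males Hsp90ab1 rose by 0.54 (edgeR adjusted p = 0.0482). Hspa4, Fkbp4 and Stip1 were not called there, at 0.34, 0.27 and 0.15 (edgeR adjusted p of 0.0713, 0.15 and 0.398). These genes were picked among those higher in affected females. Others of the list were not higher, such as Cacybp, with 282 to 351 CPM in affected and 324 to 432 CPM in control females.

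**Figure D4:**
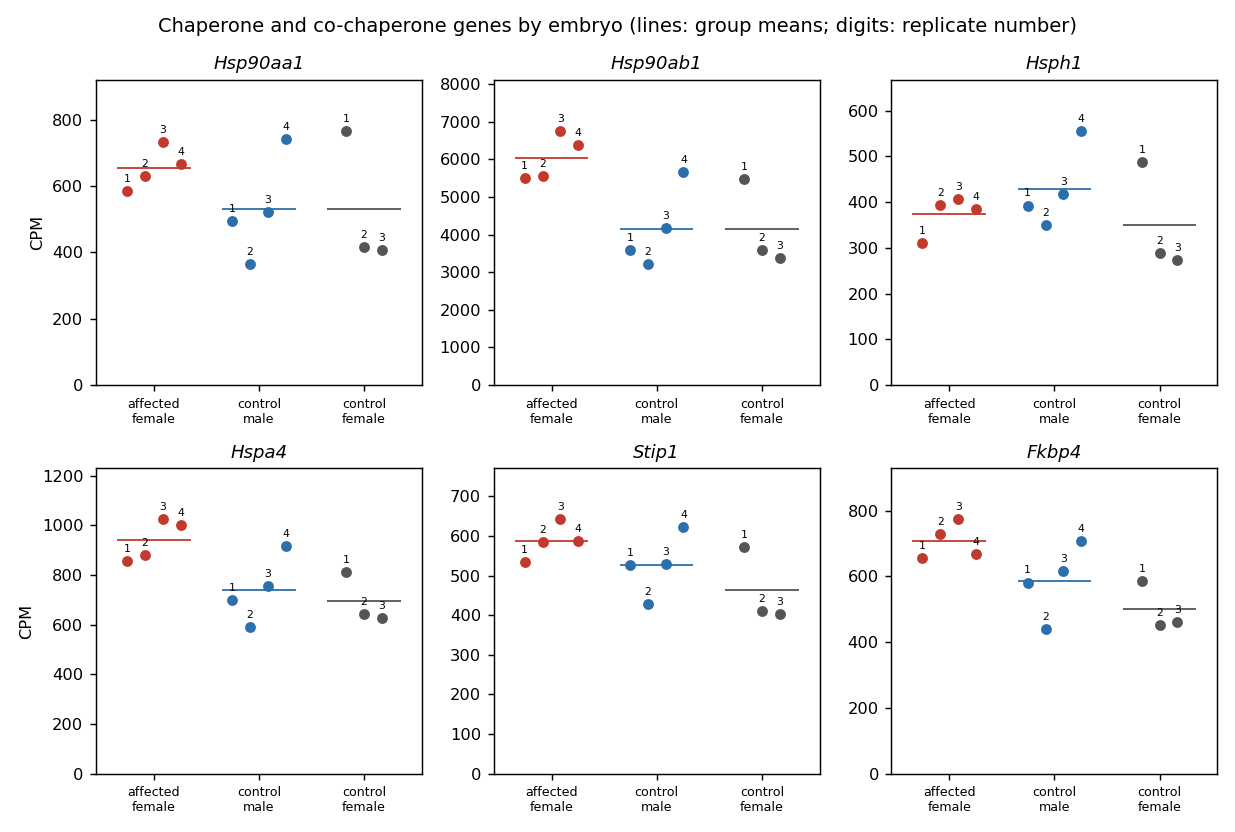
CPM of 6 chaperone and co-chaperone genes in each embryo on linear axes from 0, with affected females, control males and control females from left to right, replicate numbers above the points and group means as lines. Control female 1 and control male 4 lie close to or above the affected females for Hsp90aa1 (767 and 741 CPM) and close to them for Hsp90ab1 (5483 and 5669 CPM), and the other 5 control embryos lie lower.

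Relative to control males, affected females had 2 of the 23 other heat shock genes higher and 3 lower, or 21.7%, where 20.2% of all genes were called, and leaving out 1 embryo gave 3 to 9 calls, the most without control male 4. Sqstm1 rose by 0.51 (SE 0.099, edgeR adjusted p = 0.00956), while Chordc1, an Hsp90 co-chaperone, fell by 0.38, Hspa4l fell by 0.40 and Hspe1 fell by 0.56, with edgeR adjusted p of 0.011, 0.0114 and 0.0143. Hspd1 was at 0.26 here and was not called (edgeR adjusted p = 0.175). Of 9 chaperones of the endoplasmic reticulum and mitochondria, 5 fell and 0 rose, or 55.6%, where 20.2% of all genes were called and 10.7% as lower, with a median log2 fold change of -0.35 against -0.02 for all genes, and leaving out 1 embryo gave 3 to 6 calls. Sdf2l1 fell by 0.82 and Dnajb11 by 0.46, both in the lumen of the endoplasmic reticulum, and the protein disulfide isomerase gene Pdia4 fell by 0.44 and the J-domain gene Dnajb9 by 0.51, with edgeR adjusted p of 0.00709, 0.00638, 0.011 and 0.0241. The mitochondrial genes of the 9, Hspa9 and Trap1, were not lower. They had 645 to 757 and 109 to 126 CPM in affected females, against 439.5 to 711 and 106 to 111 CPM in control males. Between affected and control females edgeR called 0 of the 9, where 28.0% of all genes were called. Of the 9, 2 had an unadjusted p under 0.05 in edgeR, as had 6170 of 14542 genes. DESeq2 called 1 of the 9, and its total over all genes is not given here. Limma voom called 3 of the 9, a smaller share than that of all genes, whose total is given below.

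Of 36 other immediate early genes 29 were tested, and 5 rose and 1 fell in affected females against control females, or 20.7%, where 28.0% of all genes were called, with a median of 0.10, and leaving out 1 embryo gave 3 to 7 calls. Egr2, known for patterning the hindbrain, averaged 8.70 ± 1.99 CPM in affected females (SD, n = 4) and 2.54 ± 0.783 CPM in control females (SD, n = 3), and rose by 1.78 (SE 0.33, edgeR adjusted p = 0.0035). Myc rose by 0.70 (SE 0.14, edgeR adjusted p = 0.00454), and Dusp5, a phosphatase of nuclear ERK, rose by 0.94 (SE 0.27, edgeR adjusted p = 0.0203). Jund, a Jun relative, rose by 0.52 (edgeR adjusted p = 0.0312), and its adjusted p was 0.0884 without control female 1. Relative to control males 2 rose and 1 fell, or 10.3%, where 20.2% of all genes were called and leaving out 1 embryo gave 0 to 6 calls. These were Dusp5 by 0.90, Egr2 by 0.92 and Ccn2, a relative of Ccn1, which fell by 0.50 (edgeR adjusted p of 0.0221, 0.0308 and 0.036).

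Among the regulators of the heat shock response, 4 of 5 were tested, and 2 of these fell in affected females against control females, where 28.0% of all genes were called, 15.0% as lower. Leaving out 1 embryo gave 0 to 3 calls, with 0 without affected female 3, affected female 4 or control female 2. Hsf1, heat shock factor 1 itself, averaged 42.2 ± 2.64 CPM in affected females (SD, n = 4) and 52.9 ± 9.51 CPM in control females (SD, n = 3), and fell by 0.32 (edgeR adjusted p = 0.0463), but its adjusted p was 0.209 without control female 1, which had the highest level of all, 62.9 CPM. Hsbp1, which binds heat shock factor 1, fell by 0.30 (edgeR adjusted p = 0.0428). Of 15 regulators of the immediate early genes, 5 rose and 1 fell, or 40.0%, where 28.0% of all genes were called and leaving out 1 embryo gave 2 to 7 calls. Srf, the serum response factor, rose by 0.44 (SE 0.11, edgeR adjusted p = 0.0133) and by 0.48 relative to control males (SE 0.10, edgeR adjusted p = 0.011), and its coactivator Mrtfb rose by 0.38 and 0.47 (edgeR adjusted p of 0.02 and 0.0106, the first 0.0574 without control female 1). Against control females, Elk4, a partner of serum response factor, fell by 0.89 and Spry2, a feedback inhibitor of growth factor receptors, rose by 0.44 (edgeR adjusted p of 0.00829 and 0.0112). Relative to control males 4 of the 15 rose, or 26.7%, where 20.2% of all genes were called and leaving out 1 embryo gave 2 to 7 calls, among them Mapk3, the kinase ERK1, by 0.42 and Elk3, another partner, by 0.31 (edgeR adjusted p of 0.024 and 0.0438). Both comparisons share the affected females, and the values are given side by side.

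Between control males and control females edgeR called 0 genes of the lists of other heat shock genes, other immediate early genes and both lists of regulators. At an unadjusted p under 0.05 in edgeR these held 3 of 23, 5 of 29, 0 of 4 and 2 of 15 tested genes. Over all genes, 891 of 14542 passed it. DESeq2 called 0 in each list, and limma voom called 10, 4, 0 and 1. The limma voom share was above that of all genes for the other heat shock and other immediate early genes. For both lists of regulators it was below that of all genes. The totals that both tools called over all genes are given with the processing below.

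Other features of the tissue are given beside these group differences. Of the 12 glycolysis and hypoxia genes, 6 rose and 1 fell in affected females against control females, and 7 rose and 1 fell against control males, while of 10 neuron markers 10 and 8 fell, where 28.0% and 20.2% of all genes were called in the 2 comparisons. The glycolysis and hypoxia genes summed to 4167 to 5379 CPM in affected females, 2461 to 3923 CPM in control males and 2472 to 3994 CPM in control females, and control female 1 and control male 4, the embryos nearest to affected females for Hsp90aa1 and Hsp90ab1, were the highest of their groups. Neuron markers summed to 117 to 147 CPM in affected females, 204 to 364 CPM in control males and 152 to 369 CPM in control females, and surface ectoderm markers to 250 to 291, 152 to 211 and 137 to 227 CPM. Primitive erythroid markers summed to 1501 to 2758 CPM in affected females, 2544 to 4091 CPM in control males and 1008 to 4848 CPM in control females. Mitochondrial genes made up 1.31% to 1.69% of counts in affected females, 2.06% to 3.82% in control males and 2.48% to 4.99% in control females. Their part in the differences of Hsp90aa1, Hsph1, Dnajb1 and Ier2 was not tested.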

How the data were processed

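RNA from head neural tissue of 11 embryos was measured, with 1 library per embryo. Per the labels' protocols, TruSeq libraries of poly(A) RNA were sequenced on an Illumina HiSeq. The authors deposited raw whole-number counts per Entrez gene with its length, made with featureCounts on mm10 per the submitters' processing notes. Which aligner and strand setting were used, and how reads that match several genes were treated, is not stated there. Identifiers were matched to symbols for 25275 of 27179 genes with RefSeq GRCm38.p6.

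Counts were tested with edgeR 4.0.16 (R 4.3.3) after filterByExpr (minimum count 10, minimum total 15) and TMM scaling, and 1 quasi-likelihood fit held all 11 libraries with group as its only factor. The Benjamini-Hochberg adjusted p had to be under 0.05 for a call. The biological coefficient of variation was 11.9%. CPM uses TMM-scaled library sizes, and log2 CPM a prior count of 2. The SE is the log2 fold change divided by the square root of F. Rate ratios have exact binomial intervals at 95%, which cover counting error only. DESeq2 1.42.0, limma 3.58.1 voom with sample weights, other scalings and filters, a replicate block and leaving out embryos were the alternatives.

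Groups and replicate numbers come from the sample titles. The labels call the samples separate embryos and give no batch, litter or date. No library pair was a duplicate: the smallest chi-square per degree of freedom was 2.73, over genes with at least 20 counts. A whole-series table was not used here. The members and lists were chosen with earlier results of these data known. Named beyond the members were up to 4 called genes of each wider list per comparison with the smallest adjusted p, any other heat shock or immediate early gene at least 4-fold from the median in 1 embryo, and the 5 genes most like Hspa1b and Fos. The fit without control female 1 and control male 4 together, the sum of Hspa1a and Hspa1b, and the list counts without control female 1 were added after seeing the data.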

Additional observations from a re-analysis of the deposited data

Results flagged for a closer look

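Of 20 groups of 4 embryos examined, 1 gene in 1 group each, 2 held a sample far from the others by Dixon's test, and chance gives about 1 in 20. Hspa1a in affected female 2, at 0.206 CPM, lay above the other affected females, but this was 2 counts against 1 count in each of the others. Ier2 in affected female 1, at 14.8 CPM, lay above the other affected females, which had 11.5 to 11.9 CPM. The 3 control females were too few for this test, so control female 1 was not examined by it.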

How the results depend on the processing

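Of the fold changes recomputed for single genes, 412 kept their direction and their side of the threshold, 18 lost a call, 14 gained one and 37 changed direction. Affected against control females: members called were 4 with no filter and 1 each with DESeq2, the replicate block and the 2 groups alone. The 4 were Hspa1a, Hspa1b, Fos and Ier2, and the calls of Hspa1a, Hspa1b and Fos rested on control female 1. Totals over all genes with no filter, DESeq2 and the 2 groups alone are not given here, so those counts have no share beside them. Voom called 7639 of 14542 genes and 3 of 8 members. Without control female 1 and control male 4 together 3 of 8 members were called, or 37.5%, where 38.8% of all genes were. Affected females against control males: voom called 6397 genes and 3 members, and without control female 1 and control male 4 together 6014 genes and 2 members were called. Control males against control females: no filter gave 2 members, Hspa1a and Hspa1b, with no total over all genes given here. DESeq2 called 43 genes, and voom 1569 of 14542 genes and 2 of 8 members. Leaving out 1 embryo gave 1663 to 4957, 361 to 5140 and 18 to 35 genes called in the 3 comparisons, and 1 to 2, 0 to 2 and 0 to 1 members. The fewest genes were called without control female 3 in the comparison of females (1663) and without affected female 3 in that with control males (361). Without control male 4 the comparison with control males called 5140.

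The following directions reversed, and the cause was not tested. In affected over control females, Egr1 was at 0.051 with voom and 0.27 without control female 1 and control male 4, and Dnajb1 at -0.020 with the replicate block and -0.0045 with the 2 groups alone. In affected females over control males, Jun was at 0.0030 with RLE scaling, 0.0029 with DESeq2, 0.048 with voom, 0.0032 with the replicate block and 0.091 without both embryos, and Hspa8 was at 0.12 without both. In control males over control females, Hsp90aa1 was at 0.0071 with no filter, 0.26 with voom, 0.0046 with the 2 groups alone and 0.16 without both, Hspa1b at 0.25 with voom and 0.64 without both, Hspa8 at 0.077 with voom, Egr1 at 0.080 without both, and the sum of Hspa1a and Hspa1b at 1.02 without control female 1. Leaving out 1 embryo gave, in affected over control females, Dnajb1 -0.028 to 0.051, Egr1 -1.13 to 0.27 and Hsph1 -0.049 to 0.42. In affected females over control males it gave Hspa8 -0.31 to 0.12, Jun -0.15 to 0.087 and Egr1 -0.0087 to 0.37. In control males over control females it gave Hsp90aa1 -0.21 to 0.36, Jun -0.20 to 0.030, Hspa1b -5.20 to 0.90, Hspa8 -0.40 to 0.024 and Egr1 -1.31 to 0.089.

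For Hspa1b in affected over control females, voom gave -0.60 with an adjusted p of 0.502 and weighted control female 1 at 0.297, the lowest of the 11, and DESeq2 gave no adjusted p. Hspa1b failed the filter without control male 1 or 4. Replicate numbers were shared by 10 pairs of embryos, whose deviations correlated between -0.136 and 0.178, with 3 over 0.1. Of 11 libraries, 2 correlated best with their own number. The numbers were therefore not treated as pairs in the main fit, but correlations over so few embryos cannot exclude a pairing. With the replicate block 2875, 3418 and 21 genes and 1, 1 and 0 members were called. Hspa1a and Fos rest on 1 to 18 counts in all embryos but control female 1, so smaller differences in them were not detectable at this depth.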

Other observations

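Several genes outside the lists also stood apart in control female 1, and they are named after their values were seen. Bhlhe40, a transcription factor induced by hypoxia, had 28.9 CPM in it and 3.07 and 5.19 CPM in control females 2 and 3. Ndrg1, a hypoxia-induced gene, had 27.4 CPM in it and 3.39 and 3.34 CPM in the other control females, and Ddit4, an inhibitor of mTOR signalling, had 76.6 CPM in it and 16.4 and 21.9 CPM in those. Cdkn1a, the cell cycle inhibitor p21, had 15.3 CPM in it and 4.35 and 5.75 CPM in those, and Eda2r, a p53 target, had 23.1 CPM in it and 11.4 and 9.92 CPM in those. The adult beta globin Hbb-b1 had 65.5 CPM in it, against 3.29 to 13.9 CPM in the other 10 embryos, whereas the embryonic globin Hbb-y had 159.9 CPM in it against a median of 684 CPM over all embryos.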
